A study of Sus scrofa with 10 samples.

Results

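MHC class I molecules are the proteins with which nearly every nucleated cell shows fragments of its own content to cytotoxic T cells and natural killer cells. Each is made of a polymorphic heavy chain and an invariant light chain, B2M (beta-2 microglobulin), without which the heavy chain is poorly carried to the cell surface. In the pig the heavy chains are named SLA (swine leukocyte antigen). SLA-1 and SLA-3 belong to the classical chains, which present peptides to CD8 T cells, whereas SLA-6, SLA-7 and SLA-8 are the non-classical chains, which vary less between animals. Interferons induce the heavy chains, B2M and the machinery that supplies peptides together, and the oviduct is a tissue that meets spermatozoa and, after fertilization, embryos carrying foreign antigens.

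The array features (single probe spots) annotated to SLA-1, SLA-3, SLA-5, SLA-6, SLA-7, SLA-8 or B2M were studied. These were 27 of the 45220 features of the table, 20 for the 6 heavy chains and 7 for B2M. There were 3 features for SLA-1, 8 for SLA-3, 2 for SLA-5, 2 for SLA-6, 1 for SLA-7 and 4 for SLA-8. The names are those of the array's annotation, and every feature had a value in every sow. All features are given apart, because class I genes are polymorphic and alike in sequence. A probe may therefore read the alleles of different sows unequally, or read more than 1 of the genes. Among the genes looked up in the reference annotation, SLA-1 and SLA-5 come first, followed by LOC100513601, SLA-2 and SLA-3. Beyond 2 pseudogenes lie SLA-8, SLA-7 and SLA-6. Other genes that may lie between them were not listed. The symbol B2M names 2 genes there.

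RNA of the ampullary-isthmic junction of the oviduct, the place of fertilization in the sow, came from 10 Landrace x Large White hybrid sows in natural oestrus after weaning, with no hormones given. In 5 of them fresh boar semen had been deposited in the cervix about 10 hours after the signs of standing oestrus, and 5 were left without insemination. All oviducts were removed after ovulation, so that every sow carried ovulated eggs, and only those of the first group had been exposed to semen. The whole wall was taken, unflushed, and hybridized to 1 single-colour array per sow.

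Levels are log2 intensities after background correction and quantile normalization by the authors, and a difference is always the mean of the inseminated sows less that of the others, on that scale. The highest value of the arrays was 16.0 and the median of all values was 7.09. The oviduct-specific glycoprotein OVGP1 had a level of 15.94 ± 0.0251 (SD, n = 5) with insemination and 15.96 ± 0.0198 (SD, n = 5) without it, near the highest value in both. Sow AI1061 stood apart from the others, with a mean correlation of 0.9397 with the other arrays over all features, where the other 9 sows had 0.9671 to 0.9757. Sows are named as on the array labels, in which AI precedes the number of inseminated and non-inseminated animals alike. In RNA of a whole tissue, fewer cells of a type and less RNA per cell cannot be told apart.

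The classical chains and B2M were among the brightest features of the oviduct, and the non-classical chains spread over a wide range. The 11 features of SLA-1 and SLA-3 had mean percentiles of 92.1 to 99.2 among all features of an array, and the 7 features of B2M had 97.1 to 99.6. SLA-5, which lies among the classical genes, was read by a feature at percentile 98.2 and another at 86.4. The 7 non-classical features lay lower, from 28.6 to 91.0. The 4 features of SLA-8 covered percentiles 67.0 to 91.0, with levels of 7.71 to 11.43 in the group means. SLA-6 had 1 feature at 79.8 and 1 at 28.6, and the single feature of SLA-7 was at 35.7. Probes differ in how strongly they bind their target, so these positions were not tested against each other.

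The SLA-7 feature and the fainter SLA-6 feature were below the median of all values in all but 1 sow. SLA-7 was at 6.72, 6.56, 6.73, 6.80 and 6.63 in inseminated sows AI943, AI993, AI837, AI1059 and AI792. In non-inseminated sows AI788, AI1061, AI991, AI696 and AI992 it was at 6.79, 9.97, 6.75, 6.89 and 6.90. Only sow AI1061, whose whole array stood apart, was far from the rest. The fainter SLA-6 feature, 19863, was at 7.04, 6.93, 6.43, 6.65 and 6.53 in inseminated and at 6.63, 7.99, 6.68, 6.74 and 6.53 in non-inseminated sows. It was again highest in AI1061, and its group difference was -0.20 (standard error 0.26).

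**Figure D1:**
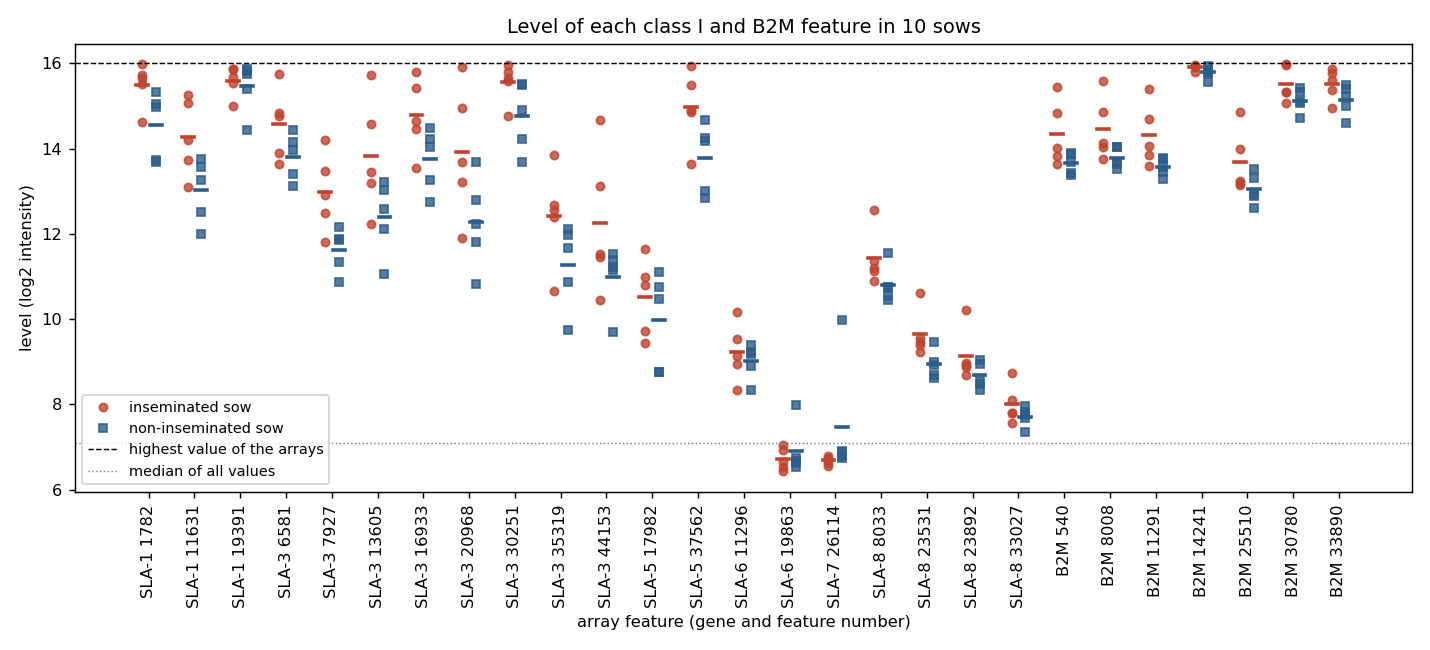
Level (log2 intensity) of the 27 features in each of the 10 sows, with inseminated sows as circles, non-inseminated sows as squares and group means as short bars. The dashed line is the highest value of the arrays, 16.0, and the dotted line the median of all values, 7.09, which the SLA-7 feature exceeded in 1 sow.

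Heavy chains and light chain were on the whole higher in mean in inseminated sows, but none of the 27 features passed after adjustment. Of these, 25 were higher in mean and 2 lower, and their median difference was 0.69, where 50.3% of all features were higher and the median difference of all features was 0.0. A difference of at least 1 in the upward direction was seen in 8 of the 27, against 0.181% of all features. At an unadjusted p under 0.05 in limma 12 were higher and 0 lower, against 2.08% of all features higher and 1.3% lower. By the exact permutation test, two-sided, 4 of these 12 also had p under 0.05 (SLA-3 feature 7927, SLA-8 feature 23531 and B2M features 8008 and 11291), and so had SLA-7, which was lower. For the other 8 of the 12 the exact permutation p was 0.0635 to 0.0952. The exact test was run on the members alone, so these counts have no share of all features beside them. After Benjamini-Hochberg adjustment over all 45220 features each of the 27 had an adjusted p of 0.9998, and 0% of all features passed. The groups overlapped in every one of the 27, while 0.462% of all features were higher without overlap. The features of 1 gene, and of near-identical genes, are not independent of each other.

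**Figure D2:**
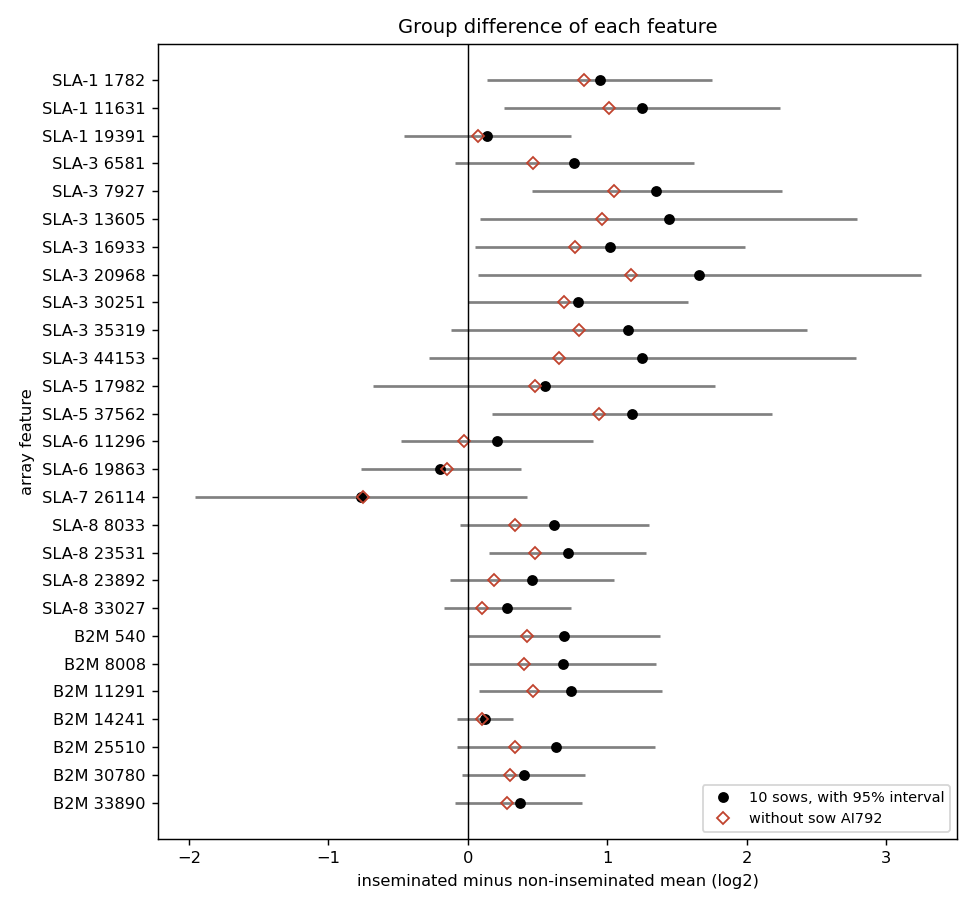
Difference between the group means (inseminated minus non-inseminated, log2) of each of the 27 features with its 95% interval from limma, and the same difference without sow AI792. Of the 27 differences 25 lay above 0, and without that sow their median went from 0.69 to 0.47.

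SLA-3 was named by the study from these same samples, so its direction is not independent evidence. It had the largest mean difference of the 7 genes, and all of its 8 features were higher in mean in inseminated sows, by 0.76 to 1.66. The feature with the smallest unadjusted p of the 27 was SLA-3 feature 7927. It was at 13.47, 12.92, 11.82, 12.48 and 14.20 in inseminated sows AI943, AI993, AI837, AI1059 and AI792. In non-inseminated sows AI788, AI1061, AI991, AI696 and AI992 it was at 11.35, 11.86, 10.87, 11.88 and 12.16. Thus 4 of the 5 inseminated sows were above every non-inseminated sow, and AI837 was within their range. The difference was 1.35 (standard error 0.40), a 2.56-fold change (unadjusted p = 0.00652 from limma, exact permutation test, two-sided, p = 0.0317). Without sow AI792 it was 1.05. The 4 features that went with it across the sows were also higher in mean. In the same order of sows as above, feature 6581 was at 13.89, 14.76, 13.65, 14.83 and 15.75 in inseminated and at 13.40, 14.15, 13.12, 13.96 and 14.44 in non-inseminated sows. Levels of feature 16933 were 15.42, 14.65, 13.55, 14.47 and 15.81 in inseminated and at 13.27, 14.49, 12.75, 14.22 and 14.05 in non-inseminated sows. Both were highest in AI792 and lowest in AI991, and they differed by 0.76 (standard error 0.39) and 1.02 (standard error 0.44). Feature 30251, the brightest of SLA-3, was at 15.67, 15.81, 14.77, 15.59 and 15.96 in inseminated and at 14.23, 14.91, 13.69, 15.51 and 15.50 in non-inseminated sows, with AI792 within 0.1 of the highest value. For feature 35319 the levels were 12.68, 12.40, 10.66, 12.57 and 13.85 in inseminated and at 10.87, 11.68, 9.74, 11.98 and 12.12 in non-inseminated sows. In both of these 4 inseminated sows were above all non-inseminated sows, with differences of 0.79 (standard error 0.36) and 1.15 (standard error 0.58). The 3 features of widest range were 20968, given with the patterns across sows, 13605 and 44153. Feature 13605 was at 12.23, 14.58, 13.19, 13.45 and 15.73 in inseminated and at 12.58, 13.03, 12.11, 11.07 and 13.21 in non-inseminated sows. In feature 44153 the levels were 10.46, 13.12, 11.47, 11.52 and 14.68 in inseminated and at 11.52, 11.38, 11.16, 9.69 and 11.22 in non-inseminated sows. AI792 was again highest, but here AI696 was lowest, and the differences were 1.66 (standard error 0.72), 1.44 (standard error 0.61) and 1.25 (standard error 0.70) in this order. Without AI792 the difference was 0.65 in feature 44153 and 0.47 in feature 6581, and without AI991 it was 0.52 in feature 30251. As the mean of 8 features SLA-3 was at 13.79 ± 0.937 (SD, n = 5) against 12.61 ± 0.556 (SD, n = 5).

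For SLA-1, the other classical chain on the array, 2 features were higher by about as much and the third hardly differed. Feature 11631 was at 15.07, 14.20, 13.11, 13.74 and 15.26 in the inseminated sows, in the same order as above, and at 12.52, 13.57, 12.00, 13.26 and 13.76 in the non-inseminated ones. Its difference was 1.25 (standard error 0.45, exact permutation p = 0.0635), and 3 inseminated sows were above all non-inseminated sows. Feature 1782 was at 15.73, 15.67, 14.62, 15.52 and 15.98 in inseminated and at 13.73, 15.33, 13.70, 14.98 and 15.04 in non-inseminated sows. It differed by 0.95 (standard error 0.37, exact permutation p = 0.0714), and sow AI792 was within 0.1 of the highest value. Feature 19391, bright in every sow, was at 15.01, 15.87, 15.54, 15.69 and 15.87 in inseminated and at 15.40, 15.76, 14.44, 15.86 and 15.82 in non-inseminated sows. It differed by 0.14 (standard error 0.27). Without sow AI991, the lowest of all, the sign turned, to -0.11.

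SLA-5 was higher in mean in inseminated sows in both features. Feature 37562 was at 15.50, 14.86, 13.63, 14.90 and 15.93 in inseminated and at 13.00, 14.68, 12.85, 14.24 and 14.17 in non-inseminated sows. It differed by 1.18 (standard error 0.46) and had an unadjusted p of 0.026 from limma and an exact permutation p of 0.0635, and 4 inseminated sows were above all non-inseminated sows. Sow AI792 was within 0.1 of the highest value in it. The fainter feature, 17982, was at 11.64, 10.99, 9.45, 9.72 and 10.81 in inseminated and at 8.77, 10.47, 8.76, 10.75 and 11.11 in non-inseminated sows. It differed by 0.55 (standard error 0.56), with sows AI943 and AI992 highest in their groups at 11.64 and 11.11. Without AI943 it was 0.27, and without AI788 or AI991 0.25.

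Of the non-classical chains, SLA-8 was higher in mean in inseminated sows in all 4 features, by 0.28 to 0.72. The 2 features of SLA-6 had opposite signs, and SLA-7 was lower in mean. SLA-8 feature 23531 was at 9.56, 9.23, 9.39, 9.47 and 10.61 in inseminated and at 8.61, 8.99, 8.69, 9.46 and 8.93 in non-inseminated sows. Only non-inseminated sow AI696 reached the range of the inseminated sows. This feature differed by 0.72 (standard error 0.26, unadjusted p = 0.0171 from limma, exact permutation test, two-sided, p = 0.0238). The other 3 features of SLA-8 were likewise highest in AI792. Feature 8033 was at 11.37, 11.13, 10.89, 11.21 and 12.56 in inseminated and at 10.45, 11.55, 10.76, 10.75 and 10.55 in non-inseminated sows. Feature 23892 had levels of 8.93, 8.69, 8.88, 8.98 and 10.21 in inseminated and at 8.33, 8.96, 8.49, 9.05 and 8.56 in non-inseminated sows, and the faintest, 33027, of 8.10, 7.79, 7.56, 7.81 and 8.73 in inseminated and at 7.68, 7.35, 7.83, 7.96 and 7.75 in non-inseminated sows. They differed by 0.62 (standard error 0.31), 0.46 (standard error 0.27) and 0.28 (standard error 0.21), or by 0.34, 0.19 and 0.10 without AI792. The brighter SLA-6 feature, 11296, was at 9.53, 9.13, 8.33, 8.95 and 10.18 in inseminated and at 9.40, 8.35, 8.91, 9.18 and 9.23 in non-inseminated sows. It differed by 0.21 (standard error 0.31), or by -0.03 without sow AI792, and its 95% interval ran from -0.48 to 0.90. SLA-7 differed by -0.77 (standard error 0.54, unadjusted p = 0.182 from limma, exact permutation test, two-sided, p = 0.0238), or by -0.14 without sow AI1061. Inseminated sows held its lowest 4 levels. The median difference was 1.15 over the 11 classical features and 0.28 over the 7 non-classical ones. Whether classical and non-classical chains differed in this was not tested.

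B2M was higher in mean in inseminated sows in all 7 features, by 0.12 to 0.74. Feature 11291 was at 14.69, 14.06, 13.85, 13.59 and 15.40 in inseminated sows AI943, AI993, AI837, AI1059 and AI792. It was at 13.46, 13.58, 13.29, 13.77 and 13.79 in non-inseminated sows AI788, AI1061, AI991, AI696 and AI992. Again 4 inseminated sows were above all non-inseminated sows, 2 of them by less than 0.3, and AI792 and AI943 stood well above. It differed by 0.74 (standard error 0.30, unadjusted p = 0.0306 from limma, exact permutation test, two-sided, p = 0.0317), or by 0.47 without sow AI792. Features 540, 8008 and 25510 gave nearly the same order of sows. Feature 540 was at 14.83, 14.01, 13.82, 13.65 and 15.45 in inseminated and at 13.44, 13.69, 13.38, 13.90 and 13.88 in non-inseminated sows. Feature 8008 was at 14.85, 14.13, 14.05, 13.75 and 15.58 in inseminated and at 13.65, 13.70, 13.53, 14.05 and 14.05 in non-inseminated sows, and feature 25510 at 14.00, 13.25, 13.14, 13.20 and 14.87 in inseminated and at 12.94, 12.89, 12.62, 13.32 and 13.52 in non-inseminated sows. Their differences were 0.69 (standard error 0.31), 0.68 (standard error 0.31) and 0.63 (standard error 0.32), or 0.42, 0.40 and 0.34 without AI792. The brighter features spread less. Feature 30780 was at 15.98, 15.33, 15.34, 15.07 and 15.96 in inseminated and at 15.12, 15.08, 14.71, 15.43 and 15.32 in non-inseminated sows, with AI943 and AI792 within 0.1 of the highest value. Feature 33890 was at 15.77, 15.61, 14.96, 15.37 and 15.87 in inseminated and at 15.0, 15.23, 14.61, 15.40 and 15.50 in non-inseminated sows. They differed by 0.40 (standard error 0.20) and 0.37 (standard error 0.21), the latter by 0.23 without AI991. The brightest feature, 14241, was at 15.93, 15.93, 15.79, 15.92 and 15.97 in inseminated and at 15.80, 15.95, 15.56, 15.85 and 15.78 in non-inseminated sows. It was within 0.1 of the highest value in 4 inseminated and 1 non-inseminated sows and differed by 0.12. As a mean of 7 features B2M was at 14.83 ± 0.526 (SD, n = 5) against 14.31 ± 0.246 (SD, n = 5).

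At the level of gene means 6 of the 7 genes were higher in inseminated sows and 3 had an unadjusted p under 0.05 in limma. These were SLA-3 with a difference of 1.18 (standard error 0.42), SLA-1 with 0.78 (standard error 0.32) and B2M with 0.52 (standard error 0.23). Their exact permutation p, two-sided, was 0.0397, 0.0714 and 0.0794. SLA-5, SLA-8, SLA-6 and SLA-7 differed by 0.86, 0.52, 0.01 and -0.77, and the sign for SLA-6 turned with some sows left out. Of all 4560 gene symbols 46.8% were higher in mean and 1.47% were higher at such a p. After adjustment over all symbols each of the 7 had an adjusted p of 0.999 from limma, and none of the symbols passed. The difference of SLA-3 was 0.82, that of SLA-1 0.64, that of SLA-8 0.28 and that of B2M 0.33 without sow AI792. With the brightest feature in place of the mean, SLA-1 differed by 0.14, SLA-3 by 0.79 and B2M by 0.12. Features within 0.1 of the highest value in any sow were also left out of the means. SLA-5 then differed by 0.55, SLA-1 by 0.70, SLA-3 by 1.16 and B2M by 0.62.

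Inseminated sow AI792 had the highest level in 23 of the 27 features, and non-inseminated sow AI991 the lowest in 17. The mean deviation from the average of the 10 sows, over the 27 features, was 1.25 in AI792, 0.37 in AI993, 0.35 in AI943, 0.06 in AI1059 and -0.31 in AI837. It was 0.03 in AI1061, 0 in AI992, -0.25 in AI696, -0.61 in AI788 and -0.88 in AI991. Inseminated sow AI837 was therefore below 3 of the non-inseminated sows, and AI788 and AI991 were the lowest of all. Without AI792 the count of features higher at an unadjusted p under 0.05 went from 12 to 3, without AI788 or AI991 also to 3, and without AI943 to 7. Without AI837 it was 16. Over all 45220 features this count was 939 with all sows. It was 861 without AI792, 904 without AI788, 949 without AI991, 973 without AI943 and 869 without AI837.

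**Figure D3:**
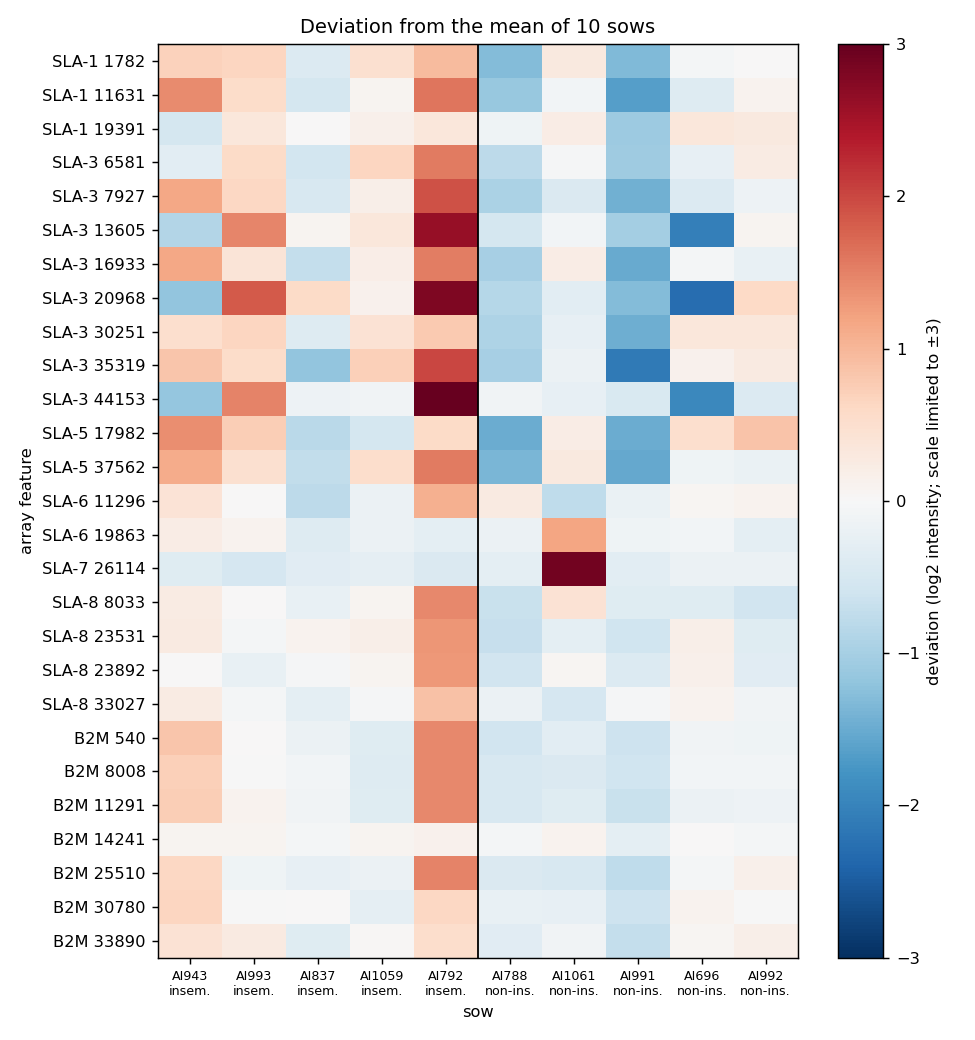
Deviation of each sow (columns, inseminated to the left of the line) from the mean of the 10 sows for each of the 27 features (rows), on the log2 scale, red above and blue below the mean. The column of AI792 is red in nearly all rows and that of AI991 blue, and SLA-3 features 13605, 20968 and 44153 are blue in AI943 and AI696.

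The features of SLA-3 fell into a pair of patterns across the sows. Average-linkage clustering on 1 minus r gave both sets, a division chosen after the values had been seen and not tested. Features 13605, 20968 and 44153 went together with each other, with Pearson r of 0.92 to 0.98 over 10 sows, and the other 5 features did so with r of 0.79 to 0.95. Between both sets r was 0.31 to 0.80. Feature 20968 was at 11.91, 14.95, 13.68, 13.22 and 15.91 in inseminated and at 12.24, 12.79, 11.80, 10.82 and 13.70 in non-inseminated sows, with AI792 within 0.1 of the highest value. Inseminated sow AI943 was thus the third lowest of all in this feature, whereas it was the second highest of all sows in feature 7927. In the mean of the first 3 features AI943 deviated by -1.08 and in the other 5 by 0.67 from the average sow. Sow AI696 deviated by -2.09 and -0.05 in the same way, and AI993 by 1.60 and 0.55.

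The range over the 10 sows was 5.09 in feature 20968, 4.98 in feature 44153 and 4.66 in feature 13605, the widest of the 27. The other 5 features of SLA-3 followed SLA-1 and SLA-5. With SLA-1 features 1782 and 11631 they had r of 0.77 to 0.98, and with SLA-5 feature 37562 r of 0.82 to 0.99. The first 3 had r of 0.38 to 0.57 with the same features of SLA-1 and 0.43 to 0.54 with that of SLA-5. Feature 6581 was intermediate, with r of 0.72 to 0.80 with the first 3 features and 0.77 and 0.82 with those of SLA-1. Alleles of the sows were not analysed here, and which transcripts each probe read was not tested. All these correlations share the same 10 arrays and are given as a description.

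Features of the other genes agreed to different degrees. The 7 features of B2M had r of 0.53 to 1.0 with each other, or 0.78 to 1.0 without feature 14241, the nearest to the highest value. For SLA-8 r was 0.64 to 0.95 over 6 pairs, and for the 2 features of SLA-5 it was 0.79. SLA-1 feature 19391 had r of 0.43 and 0.57 with the other features of the gene, which had r of 0.93 between them. The 2 features of SLA-6 had r of -0.38, so that they did not rank the sows alike. The fainter of them had r of 0.89 but rho of 0.11 with SLA-7, and in both the highest value was that of sow AI1061. Over all 60 pairs of features of 1 gene the median r was 0.80, and it was 0.74 after subtraction of the group means.

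**Figure D4:**
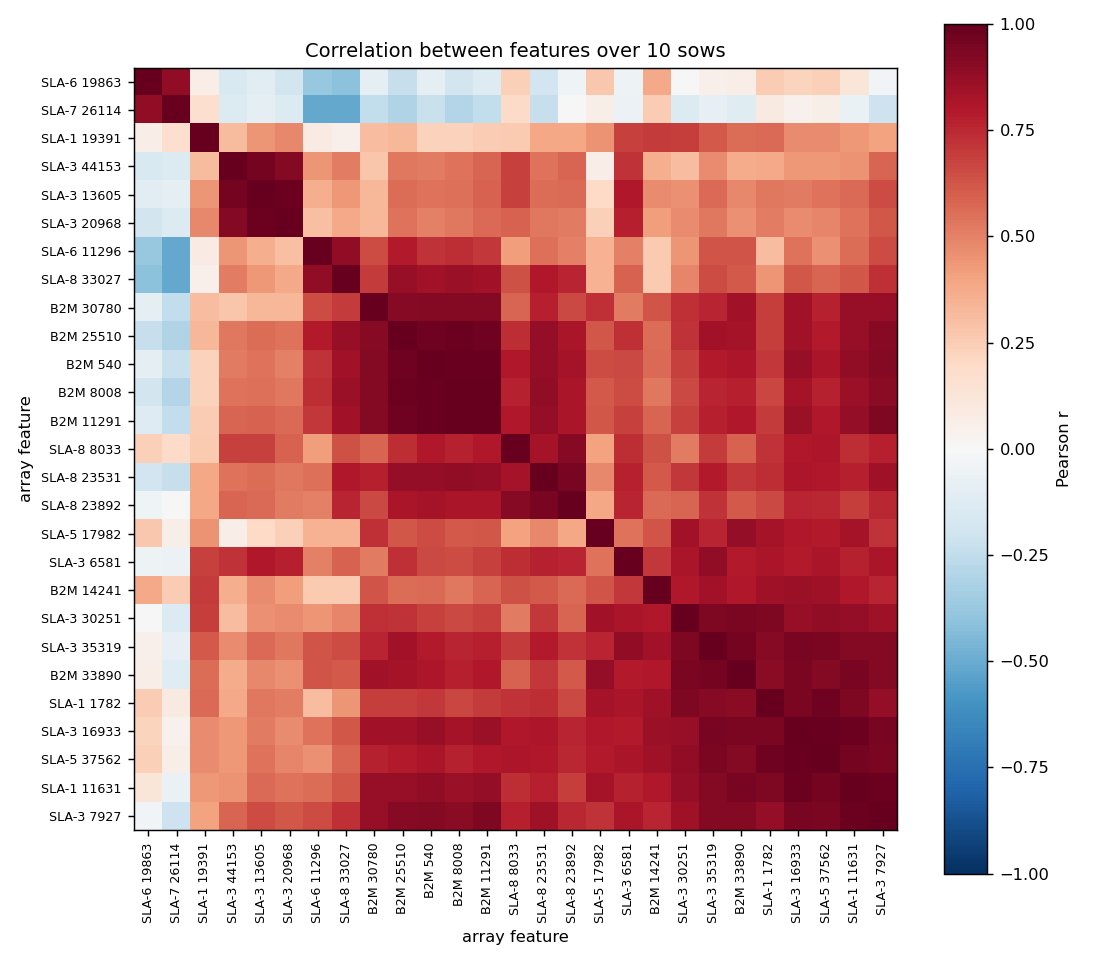
Pearson r over the 10 sows between each pair of the 27 features, ordered by average-linkage clustering of 1 minus r. SLA-3 features 13605, 20968 and 44153 form a block of their own, with r of 0.92 to 0.98, and SLA-6 feature 19863 and SLA-7 lie apart from the rest.

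Most heavy chain features were positively correlated with the light chain across the sows, but none passed after adjustment. Of the 20 heavy chain features, 14 had a positive Pearson r with the B2M mean at an unadjusted permutation p under 0.05, against 1.83% of the 45213 features outside B2M. The median r of the 20 was 0.75, and it was 0.67 after subtraction of the group means. With Spearman's rho 9 of the 20 had an unadjusted permutation p under 0.05, and the share of all features at such a p is not given here. After adjustment over the 45213 features every one of the 20 had an adjusted p of 1.0 for r and for rho, and 0 features of the array passed. The 100000 resamples set a floor under each permutation p. A single feature at that floor could not pass adjustment over 45213 features, so the lack of passing features decides nothing here. The closest were SLA-3 feature 7927 with r = 0.95 (permutation p = 6e-05) and rho = 0.90 (permutation p = 0.00078), and SLA-1 feature 11631 with r = 0.92 (permutation p = 9e-05) and rho = 0.90 (permutation p = 0.00085). Sow AI991 was the lowest and AI792 the highest in both features and in B2M.

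The relation rested on single sows to different degrees. The sows farthest from the median B2M level of 14.48 were AI792 at 15.59 and AI943 at 15.15. Without both, r was 0.85 for SLA-3 feature 7927 and 0.86 for SLA-1 feature 11631. For SLA-1 feature 19391 r went from 0.33 to 0.90, the 2 sows left out being those in which B2M was highest. Among the sows kept, AI991 was at 14.44 in this feature, the others at 15.40 to 15.87, and AI991 was also lowest in B2M. With 1 sow left out at a time, r of this feature was -0.07 to 0.60. In SLA-8, r of the 4 features went from 0.76 to 0.88 with all sows to 0.10, 0.65, 0.42 and 0.13 without these 2, in features 8033, 23531, 23892 and 33027. SLA-6 feature 11296 went from 0.73 to 0.14. In 8033, 33027 and 11296 the relation thus rested on those sows. The 3 SLA-3 features of the first set had r of 0.51 to 0.55 with B2M and permutation p of 0.103 to 0.126. With 1 sow left out, their lowest r was 0.03, 0.07 and -0.18 in features 13605, 20968 and 44153. SLA-7 had r of -0.24 and the fainter SLA-6 feature r of -0.11, with permutation p of 0.393 and 0.724. With 5 sows a group no correlation was computed within a group.

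**Figure D5:**
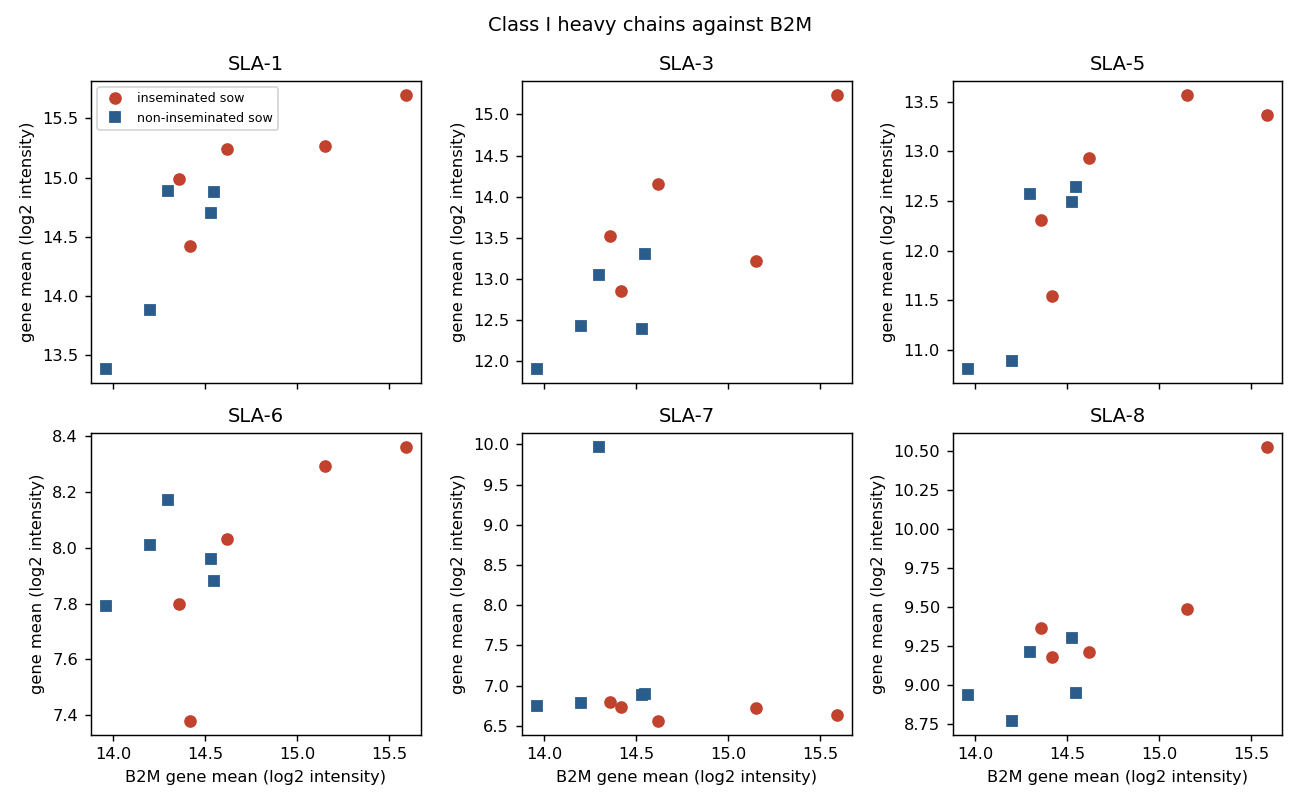
Mean level of each heavy chain gene (vertical axis, log2 intensity, its own scale in each panel) against the mean level of B2M (horizontal axis) in the 10 sows, inseminated as circles and non-inseminated as squares. SLA-1, SLA-3 and SLA-5 are low in the sow with the lowest B2M, AI991, and SLA-8 is highest in AI792, where B2M was 15.59.

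Over gene means r with B2M was 0.87 for SLA-8, 0.82 for SLA-1, 0.81 for SLA-5, 0.80 for SLA-3, 0.62 for SLA-6 and -0.24 for SLA-7. The permutation p was 0.00199, 0.00513, 0.00391, 0.00743, 0.0621 and 0.393 in this order, and the adjusted p over all symbols was 0.999 for each. Spearman's rho was 0.67, 0.82, 0.90, 0.71, 0.58 and -0.50, with permutation p of 0.0388, 0.00565, 0.00092, 0.0262, 0.0896 and 0.143. Without sows AI792 and AI943 r was 0.48, 0.86, 0.83, 0.72, 0.06 and -0.13. Ranked by r after subtraction of the group means, SLA-8 was the 12th closest of 4559 symbols to B2M, SLA-6 the 26th, SLA-5 the 27th, SLA-1 the 35th and SLA-3 the 61st, whereas SLA-7, with r of -0.01, had rank 2543.

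The 8 symbols outside the class I genes that were closest to B2M in this ranking, among those above the 40th percentile of level, are given as a description. LCP1, an actin-bundling protein of leukocytes, had r of 0.96 over the 10 sows after subtraction of the group means and 0.89 before it. PIGR, the epithelial carrier of secreted antibodies, had 0.83 and ICAM2, an adhesion molecule of endothelium and leukocytes, 0.81. HSPE1, a mitochondrial chaperone, had 0.94 and DDC 0.91, against 0.47 and 0.29 before subtraction. VPS18 had 0.87, SCML4 0.85 and KDM1B 0.84. PIGR differed between the groups by 0.51 (standard error 0.22) and ICAM2 by 0.21 (standard error 0.10), with unadjusted p of 0.0382 and 0.0533 from limma. Closest to the mean of the heavy chains were TLR3, a sensor of double-stranded RNA, at 0.96 and AIF1, a macrophage protein, at 0.94. Before subtraction they had 0.81 and 0.95. SLA-7, far from the rest only in sow AI1061, is among the heavy chains. It had r of 0.59 with their mean, against -0.01 with B2M. VPS39, LOC100512052, PPP1R13B, FSCN1, IL4R and RPL27 followed with 0.93 to 0.82, against 0.56 to 0.75 before subtraction. AIF1 differed by 0.39 (standard error 0.23) between the groups, and TLR3 by -0.07 (standard error 0.17).

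Genes that supply and load the peptides were higher in mean in 8 of 9 measured, of 15 listed, with a median difference of 0.12, against 46.8% higher and a median of -0.01 over all symbols. Without sow AI792 only 4 of the 9 were higher and 5 lower, so that the count rested on that sow. PSMB8 and PSMB9, catalytic subunits of the immunoproteasome, differed by 0.69 (standard error 0.31, unadjusted p = 0.049 from limma) and 0.63 (standard error 0.52). The peptide transporter subunits TAP1 and TAP2 differed by 0.39 and 0.12, and the chaperone CALR, calreticulin, by 0.12. PSMB10 and the proteasome activators PSME1, PSME2 and PSME3 differed by 0, 0.03, -0.03 and 0.03. Without sow AI792 the differences of PSMB8, PSMB9, TAP1 and CALR were 0.47, 0.10, 0.16 and 0.22, and those of PSMB10, PSME1, PSME2, PSME3 and TAP2 were -0.11, -0.04, -0.12, -0.02 and -0.07. Across the sows PSMB8 and PSMB9 had r of 0.72 and 0.71 with B2M, TAP1 0.64 and PSME2 0.31.

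Of the regulators of class I transcription 14 of 20 listed were measured, and 5 had a higher and 9 a lower mean. Their median difference was -0.02. NLRC5, the transactivator of class I genes, differed by -0.01 (standard error 0.14) and was at 7.23 and 7.24 in the groups, close to the median of all values. IRF1, an interferon-induced transcription factor, differed by 0.07. IFNG, the gamma interferon of T and natural killer cells, was at 6.99 ± 0.257 (SD, n = 5) against 6.67 ± 0.169 (SD, n = 5), a difference of 0.31 (unadjusted p = 0.0418 from limma) at levels under the median of all values. Of the class I like molecules, 3 of 7 listed were measured and all 3 were higher in mean. CD1D, which presents lipids and was, like SLA-3, named by the study from these same samples, differed by 0.57, PROCR by 0.13 and the antibody receptor FCGRT, whose light chain is also B2M, by 0.05. Over the whole list of 49 genes, 30 were measured, 19 were higher and 11 lower in mean, 2 were higher at an unadjusted p under 0.05 and none passed adjustment. Without AI792 14 of the 30 were higher and 16 lower. Over all symbols 46.8% were higher in mean and 1.47% at such a p.

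Levels of immune cell markers are given beside these results. For T and NK cells all 8 listed markers were measured and 7 had a higher mean, against 46.8% of all symbols. Without AI792 5 were higher and 3 lower. Their mean level was 7.28 to 7.79 in inseminated and 7.19 to 7.41 in non-inseminated sows, highest in AI792. GZMB raised this mean, at a level of 10.73 over all sows, with a difference of 0.41 and r of 0.11 with B2M. CD3D, CD3G, CD2, CD8A, GZMA and PRF1 had mean levels of 6.67 to 6.97, under the median of all values. CD8A and CD8B, the co-receptor that binds class I, differed by 0.08 and 0.12, and the activating receptor KLRK1 by 0.61 (standard error 0.33), or by 0.25 without AI792. The natural killer cell receptor NCR1 differed by -0.28 (standard error 0.17). CD8B and NCR1 were likewise under the median of all values, at mean levels of 6.61 and 6.73. Of the 8 markers of T and NK cells 2 were under the median of all values in every sow. Of 4 listed pan-leukocyte markers PTPRC and CD53 were measured and differed by -0.24 and 0.37, at a mean level of 6.87 to 7.82 against 6.95 to 7.38, again highest in AI792. Macrophage markers, 3 of 5 measured, were at 8.04 to 8.52 against 7.90 to 8.56, highest in AI1061 and lowest in AI991. AIF1 differed by 0.39, CD163 by 0.20 and CD14 by -0.11. Their r with B2M was 0.73, 0.22 and 0.17 in this order.

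All 6 measured epithelial markers were lower in mean in inseminated sows, where 46.8% of all symbols were higher. Their differences, -0.01 to -0.14, were each smaller than their standard errors of 0.07 to 0.35. Mean levels of these markers were 12.01 to 12.46 against 11.66 to 12.63, lowest in AI1061. The smooth muscle markers were at 13.05 to 14.17 against 12.23 to 14.48, and the stromal markers at 10.78 to 12.25 against 10.05 to 12.04, both lowest in AI992. Endothelial markers, all 5 measured, were at 7.82 to 7.94 against 7.64 to 8.27. Of the red cell markers SLC4A1 was measured and differed by -0.40. None of the markers passed adjustment over all symbols in limma. The part of these cells in the class I levels was not tested.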

How the data were processed

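RNA of the oviductal junction of 10 sows was hybridized to Agilent porcine arrays, 1 per sow. The deposited values are log2 intensities, which the authors obtained from GenePix images by normexp background correction with an offset of 10 and quantile normalization in limma. Their sorted values differ by at most 0.054 between arrays, and quantile normalization hides any change shared by most genes. Background values and spot flags were not used here. Symbols came from the platform annotation, updated through Sscrofa11.1 accessions for 6055 of 10290 named features, which changed 446 of them. Of the 27 member features, 17 had an accession in that reference. No probe sequence and no probe coordinate was used, as the array's build is not given in the sources used here. Reference coordinates served only to put the class I genes in order.

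The groups, taken from the labels, were compared with limma 3.58.1 (lmFit and eBayes, R 4.3.3) for every feature and again for gene means, and p-values were adjusted by Benjamini-Hochberg over the whole table. Single values were also tested by exact permutation of the sows. Correlations were tested in Python 3.11.15 with 100000 resamples and adjusted over all features outside B2M, or all symbols, since an adjustment over the class I features alone would not be independent of their choice. The tests were also run on simulated data, with results not given here. The labels name separate animals, and the number of arrays limits the precision. Besides the members, genes were named from a list of antigen presentation and as the 8 symbols closest to B2M and to the heavy chain mean. Members and lists were chosen with earlier results of these data known. Blood progesterone and the day of surgery were not analysed here. The alternatives were other centrings, a repeated quantile normalization, a filter on low levels, a trended and robust variance, array weights and an equal-variance test. Further ones were the brightest feature in place of the mean, gene means without features near the highest value, and leaving out each sow. No paired analysis was made, because the groups are of different sows and the labels match none of them to each other.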

Additional observations from a re-analysis of the deposited data

Results flagged for a closer look

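Of 54 groups of 5 sows checked, 2 for each of the 27 features, 8 held a sow whose gap to the nearest other took more of the group's range than Dixon's limit for 5 values, which chance passes in about 1 of 20 groups. Inseminated sow AI792 was at 12.56, 10.61 and 10.21 in SLA-8 features 8033, 23531 and 23892, while the other inseminated sows reached at most 11.37, 9.56 and 8.98. Non-inseminated sow AI1061 was at 9.97 in SLA-7, at 7.99 in SLA-6 feature 19863 and at 11.55 in SLA-8 feature 8033, where the others of its group reached at most 6.90, 6.74 and 10.76. Non-inseminated sow AI696 was at 9.69 in SLA-3 feature 44153, the others of its group being at 11.16 to 11.52. Inseminated sow AI837 was at 15.79 in B2M feature 14241 and the others at 15.92 to 15.97, near the highest value of the arrays.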

How the results depend on the processing

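No difference of a single feature or gene of class I or B2M passed adjustment under any alternative run, the lowest adjusted p being 0.577. Of 583 such values 574 kept their direction. The 9 that turned were SLA-6 feature 19863, at 0.02 with array weights and at most 0.07 with a sow left out (-0.29 at the other end), SLA-6 feature 11296 (from -0.03 to 0.43 with a sow left out), SLA-1 feature 19391 (-0.11 to 0.29) and the SLA-6 gene mean (-0.09 to 0.16).

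The median difference over the features, 0.69, was 0.47 to 0.82 under the alternatives. Over the genes it was 0.52, or 0.21 with the brightest feature in place of the mean and 0.33 without AI792. With features near the highest value left out it was 0.55. The count of member features higher at an unadjusted p under 0.05, 12 with all sows, was 3 with an equal-variance test and 3 to 16 with a sow left out. Over all features such a count was 939, or 1025 with an equal-variance test and 832 to 1346 with a sow left out. For member genes the count was 3, or 5 with array weights, 1 with the feature of the highest mean and 1 to 5 with a sow left out. Of all symbols 1.47% were higher at such a p with all sows. That share under the alternatives is not given here, so the changes of this count cannot be set against it. The median r of heavy chain features with B2M, 0.75, was 0.63 with the brightest B2M feature, which is near the highest value, and 0.49 to 0.80 with a sow left out, the lowest without AI792. The count of heavy chain features with r above 0 at a permutation p under 0.05 was 9 to 16 with a sow left out, against 14. With all sows 1.83% of the features outside B2M had such an r, and that share with a sow left out is not given here. A group of 5 sows with single animals far from the rest limits all of these values.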
